A study of Mus musculus with 66 samples.

Results

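Gdpd3, Fggy, Clstn2 and the metallothionein genes Mt3, Mt1 and Mt2 are 6 genes picked because their signals in adult lung differed between mice with and without Nrf2, or belong to the same gene family as one that did. They are 6 of the 18193 genes measured. The platform annotation gives 8 of the 45037 probe sets that are not controls to exactly 1 of these genes: 1 each for Gdpd3 (1449526_a_at), Fggy (1452799_at), Mt3 (1420575_at) and Mt2 (1428942_at), a brighter and a dimmer one for Clstn2 (1441165_s_at and 1422158_at), and a brighter and a dimmer one for Mt1 (1422557_s_at and 1451612_at). The members were chosen by the knockout against wild-type differences in adults, at postnatal day 42 (PND42). Values at that age are therefore given as a description without a test, and tests are given for the 10 earlier ages.

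The study compared lungs of Nrf2+/+ mice (wild type) with lungs of Nrf2-/- mice (knockout) to ask how deletion of Nrf2 affects gene expression as the lung develops. There were 3 libraries of each genotype at each of 11 ages, so 66 Affymetrix arrays in 22 groups. Before birth these were embryonic days E13.5 and E15.5, then E17.5 and E18.5. After birth they were PND0 to PND4 by single days, then PND14 and PND42. Mice came from time-mated dams fed the AIN-76A diet, and the labels give no strain and no treatment beyond this. RNA came from homogenized single lungs, except at E13.5, where 2 to 3 lungs were combined per library. The knockout lacks Nrf2 in every tissue, so no result can be placed in 1 cell type, and in homogenized lung a change in the share of a cell type cannot be told apart from a change in RNA per cell.

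Nrf2, the product of Nfe2l2, drives the transcription of genes for antioxidant defence and detoxification. Metallothioneins are small cysteine-rich proteins that bind zinc and copper. Mt1 and Mt2 are widely expressed and are induced by metals through the factor Mtf1, by glucocorticoids and by stress, while Mt3 is best known from the brain and Mt4 from stratified squamous epithelium. Gdpd3 belongs to the glycerophosphodiester phosphodiesterase family and acts as a lysophospholipase D, which releases lysophosphatidic acid from lysophospholipids. Fggy is a carbohydrate kinase of the FGGY family. Clstn2 encodes calsyntenin 2, a membrane protein with cadherin repeats known mainly from synapses, where calsyntenins bind the kinesin light chain.

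The targeted gene fitted its labels in every library. Nfe2l2 stood at 10.49 to 12.25 in the 33 wild-type libraries and at 4.41 to 8.26 in the 33 knockout libraries as quantile-normalized log2(signal + 16), the scale of all levels below. The 24 arrays of PND1 to PND4 formed a set of their own, with 2% trimmed mean signals of 171.7 to 307.1 against 500 on the 42 others. Both genotypes of an age lay in the same set, so the genotype comparisons did not cross it, while changes between those 4 days and the other ages did. The knockout libraries labelled E17.5 and E18.5 ran against the wild-type order on a scale built from 4763 probe sets (wild-type E15.5 at 0 and PND0 at 1): those labelled E17.5 stood at 0.749 and those labelled E18.5 at 0.45, against 0.585 and 0.803 in wild type. Of the wild-type PND14 libraries, replicates 2 and 3 carried strong signal of thymocyte genes. Where a member is described at PND14 or E17.5, its difference is also given without these replicates or against the other wild-type age. A probe set is said to have risen or fallen only where the limma adjusted p, over all 45037 probe sets, was under 0.05.

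In adult lung Gdpd3 was lower in knockouts, and the means of the other members were higher in knockouts. Wild-type Gdpd3 was 11.88, 11.79 and 11.80 at PND42, and the knockout libraries were at 7.46, 7.21 and 5.32. As deposited signals these are 4549, 4388 and 4365 against 195, 153 and 29.6. The 3 wild-type libraries were nearly alike, and no knockout library came near them. At this age the genotypes did not overlap on 6 of the 8 probe sets, the exceptions being both Mt1 probe sets, and on 25.1% of all probe sets. The fitted difference of -5.16 ± 0.40 (SE, n = 3 per genotype), or 35.8-fold, was the 5th in size among the 45037 probe sets, of which 5.68% differed at this age. It was -4.49 without knockout replicate 3, the dimmest library, and reached -5.56 without another. Since the adult values chose the gene, these numbers describe it and carry no test.

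**Figure D1:**
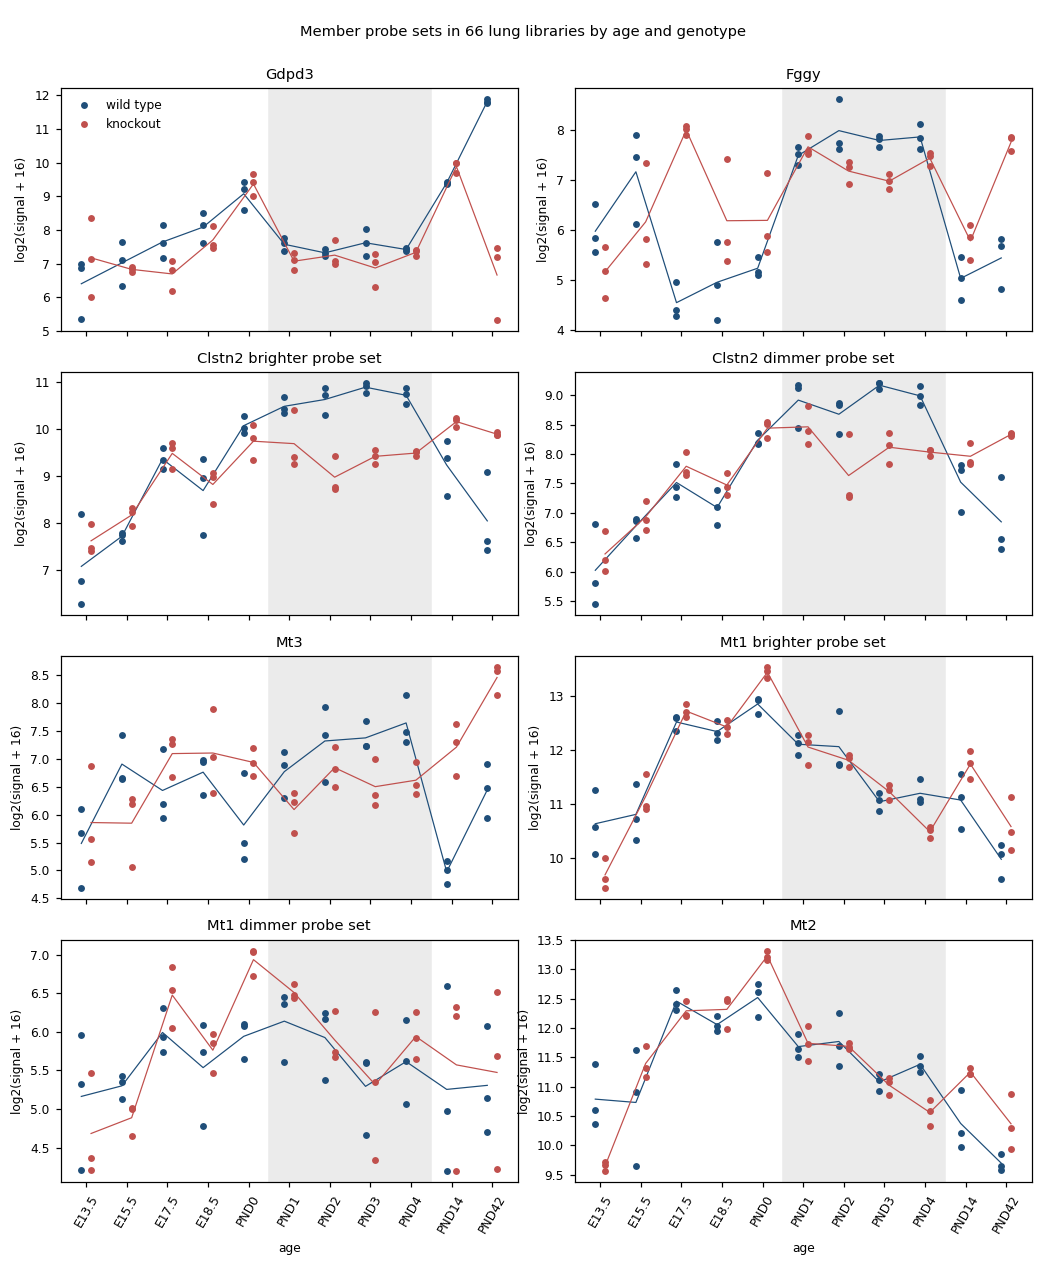
Level of each of the 8 probe sets in all 66 libraries, as log2(signal + 16) after quantile normalization, against age. Points are libraries, lines join the means of 3, and the grey band marks the separately scaled arrays of PND1 to PND4. Wild-type Gdpd3 climbs to about 11.8 at PND42 while knockout Gdpd3 lies between 5.32 and 7.46, and Mt1 and Mt2 peak at PND0 in both genotypes.

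Before adulthood the Gdpd3 levels of the genotypes lay in similar ranges. Wild-type libraries from E13.5 to PND14 ran from 5.36 to 9.44 with a median of 7.61, and knockout libraries from 6.03 to 9.99 with a median of 7.25. The genotype difference averaged over the 10 earlier ages was -0.14 ± 0.13 (SE, n = 30 per genotype, adjusted p = 0.58). No single earlier age passed, with differences from -0.95 at E17.5 (adjusted p = 0.34) to 0.77 at E13.5 (adjusted p = 0.42), and the difference did not depend on age by the test (adjusted p = 0.19). Knockouts lay below wild type without overlap, the adult direction, at E17.5 (6.19 to 7.08 against 7.17 to 8.15), where 23.5% of all probe sets did not overlap, and at PND1 (6.82 to 7.31 against 7.37 to 7.76), where 19.7% did not. Against wild type at E18.5, the knockout libraries labelled E17.5 were at -1.39 (adjusted p = 0.085). At PND14 the order was the other way round. Wild type stood at 9.37, 9.40 and 9.44 and knockouts at 9.99, 9.68 and 9.98, without overlap, as in 15.1% of all probe sets at that age. The PND14 difference of 0.48 ± 0.40 did not pass (adjusted p = 0.51), nor did that of 0.52 without wild-type replicates 2 and 3 (adjusted p = 0.89).

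Gdpd3 changed with age in wild type over the earlier ages (adjusted p = 3.5e-08, limma F test, with a span of 3.00 between the lowest and highest group mean), where 63.5% of all probe sets changed. It also changed over the 6 earlier ages outside the PND1 to PND4 array set (adjusted p = 6.5e-09, with 48.7% of all probe sets), from 6.40 ± 0.91 (SD, n = 3) at E13.5 to 9.40 ± 0.04 at PND14. Between PND14 and PND42 the wild-type mean was a further 2.42 higher. In knockouts the corresponding change was -3.22. The adult gap of Gdpd3 thus came from a higher adult level in wild type and a lower one in knockouts, each compared with 2 weeks after birth.

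Gdpd3 lies between Mapk3 and Ypel3 on chromosome 7, and Nfe2l2 lies on chromosome 2. Other glycerophosphodiesterase genes did not share the adult difference by which Gdpd3 was chosen. At PND42 the differences were -0.27 for Gdpd1, 0.40 for Gdpd2, 0.27 for Gdpd5 and 0.12 for Gde1, none of which passed. Of 17 measured genes of glycerophosphodiesterases and lysophospholipid signalling, 1 fell at PND42, Gpcpd1 (-0.38 ± 0.11, adjusted p = 0.025), which cleaves glycerophosphocholine, and none rose, with a median of 0.05 that equals that of all 18193 genes (0.05). At PND14, 2 rose, Abhd4 (0.69, adjusted p = 0.0094), an enzyme of N-acyl phospholipid breakdown, and Gdpd5 (0.43, adjusted p = 0.024), and none fell. Without wild-type PND14 replicates 2 and 3, which leaves 1 wild-type library, Abhd4 was at 0.21 (adjusted p = 0.75) and Gdpd5 at 0.09 (adjusted p = 0.94), and none of the 17 passed, with 0.176% of all genes higher and 0.0989% lower (limma). Over all genes 3.2% rose and 1.59% fell at PND42, and 5.18% and 4.17% at PND14.

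At PND0 the same list had 4 rises and 1 fall, with Gdpd2 at 1.25 (adjusted p = 0.0075), Lpar3, a lysophosphatidic acid receptor, at 0.82 (adjusted p = 0.043), Gdpd1 at 0.62 (adjusted p = 0.0056) and the receptor Lpar4 at -0.66 (adjusted p = 0.0026). Gdpd3 itself differed by 0.29 at that age (adjusted p = 0.77). Over all genes 5.85% rose and 8.62% fell at PND0.

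The genes most like Gdpd3 over the 66 libraries were Baiap2l1, Slc25a51 and Map3k5, with Pearson r of 0.765, 0.689 and 0.682. Libraries of 1 age share much of their expression, so these values describe a shared course over age and genotype. Baiap2l1, an I-BAR domain gene of actin and membrane shaping, had the widest adult gap of the 3: its mean was 11.33 ± 0.13 (SD, n = 3) in wild type and 9.07 ± 0.05 in knockouts at PND42. At PND14 the Baiap2l1 means were 9.87 ± 0.61 and 9.71 ± 0.75. Slc25a51, a mitochondrial carrier gene, averaged 12.14 ± 0.07 and 11.92 ± 0.08 at PND42. Map3k5, a stress-activated kinase gene, was at 10.49 ± 0.12 and 10.46 ± 0.03 at PND42, so its adult means were nearly equal. Without the 6 PND42 libraries Map3k5 was the most alike of 16437 genes (r = 0.826), and Baiap2l1 ranked 284th (r = 0.625).

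**Figure D2:**
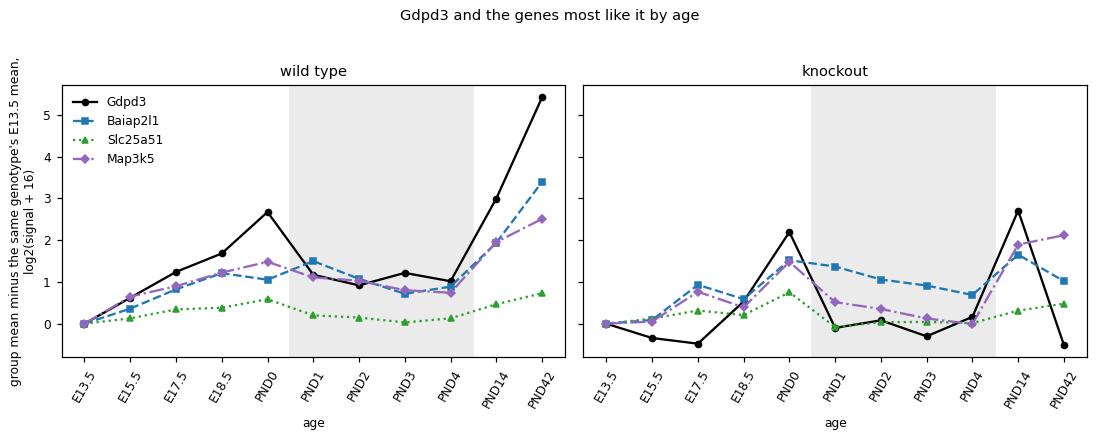
Group means of Gdpd3 and of Baiap2l1, Slc25a51 and Map3k5 against age, each with its own genotype's E13.5 mean subtracted, as log2(signal + 16), in wild type and in knockouts. In wild type all 4 genes are highest at PND42; in knockouts Gdpd3 (by -3.22) and Baiap2l1 are lower at PND42 than at PND14, while Map3k5 is not.

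Fggy was a dim probe set that stood higher in adult knockouts. At PND42 wild type was at 5.68, 5.82 and 4.83 and knockouts at 7.85, 7.57 and 7.83, with deposited signals of 41.5, 43.3 and 14.2 against 259.5, 203 and 246. All knockout libraries lay above all wild-type ones, and the difference of 2.31 ± 0.42 was the 25th in size of all probe sets.

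The Fggy test over earlier ages gave 1 age at which knockouts were higher, E17.5. Wild type stood at 4.30, 4.40 and 4.96 there and knockouts at 8.01, 8.08 and 7.88, with signals of 3.74, 6.97 and 20.5 against 299.6, 317 and 269. Every knockout library labelled E17.5 was thus near the level of adult knockouts, and every wild-type one near or below that of adult wild type. The difference was 3.44 ± 0.42 (adjusted p = 3.3e-07, limma, n = 3 per genotype). At this age 1.22% of all probe sets passed, with 0.844% of all probe sets upward, and 1 of the 8 members did, upward. The genotypes did not overlap for Fggy, as for 23.5% of all probe sets. At E18.5 knockouts stood at 7.41, 5.38 and 5.76 and wild type at 4.20, 5.77 and 4.90, and the Fggy difference of 1.23 did not pass (adjusted p = 0.057).

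The E17.5 result rests on the knockout group whose label ran against the age scale. Set against the other wild-type group, the knockout libraries labelled E17.5 were still higher in Fggy, by 3.03 ± 0.42 (adjusted p = 9.8e-06, with 0.81% of all probe sets called) over wild type at E18.5. The knockout libraries labelled E18.5 were 1.63 above wild type at E17.5, which did not pass (adjusted p = 0.073, with 0.249% called). So Fggy was high in the libraries labelled knockout E17.5 whichever wild-type age they were compared with. Several marker lists of other cell types moved with this group too. The summed signal of 5 alveolar macrophage genes was 20910 to 21130 in knockouts against 5291 to 8414 in wild type, with 4 of 5 genes higher. The 8 squamous epithelium genes summed to 776.3 to 1295 against 7259 to 8666, with 2 lower, and the 5 liver genes to 1550 to 3917 against 130.3 to 166.8, with none past the test. Their part in the Fggy result was not tested.

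From PND2 to PND4 Fggy was lower in knockouts without passing, at -0.81 (adjusted p = 0.29), -0.81 (adjusted p = 0.27) and -0.42 (adjusted p = 0.83), and the genotypes did not overlap at any of these 3 ages. Groups of 3 stood apart in 1 direction or the other in 20.2%, 27.5% and 18.4% of all probe sets there. No negative Fggy difference passed, so a change of sign was not shown. The dependence of the Fggy difference on age over the 10 earlier ages passed (limma F test, adjusted p = 4.6e-07, where 26.2% of all probe sets and 6 of the 8 members passed). It passed in the 6 ages outside PND1 to PND4 alone as well (adjusted p = 1.3e-06, with 19.4% of all probe sets). The average over those 6 ages was 0.76 ± 0.17 (SE, n = 18 per genotype, adjusted p = 0.0033), and over PND1 to PND4 it was -0.47 ± 0.21 (n = 12 per genotype, adjusted p = 0.14), where 5.16% and 13.7% of all probe sets passed. Without E17.5 and E18.5 the average over the 4 ages left was -0.03 ± 0.21 (adjusted p = 0.97), so the higher average rests on those groups, while the dependence on age still passed over those 4 ages (adjusted p = 0.022).

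Wild-type Fggy stood between 7.29 and 8.60 in the 12 libraries of PND1 to PND4, against 4.20 to 7.89 in the 18 of the other earlier ages. Age and array set cannot be told apart in this step. Within the 6 other ages wild-type Fggy changed with age all the same (adjusted p = 4.8e-06), with its highest mean, 7.16 ± 0.92 (SD, n = 3), at E15.5 and its lowest, 4.55 ± 0.36, at E17.5.

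No carbohydrate kinase on the list passed in adults, where Fggy itself carries no test. Of the 12 measured on the list, which does not hold Fggy itself, none rose and none fell at PND42 (limma; median 0.08) or at PND14 (median 0.26). Over all genes 3.2% rose and 1.59% fell at PND42, and 5.18% and 4.17% at PND14. The FGGY family relative Xylb, xylulokinase, differed by 0.26 at PND42 and 0.25 at PND14 without passing. Khk, ketohexokinase, rose on average over the 10 earlier ages (0.21 ± 0.05, limma adjusted p = 0.0071), where 5.75% of all genes rose. Fggy was most like Rinl (r = 0.70), Nat8f4 (r = 0.686) and Mical2 (r = 0.669) over the 66 libraries. Mical2 means were 8.98 to 9.62 in the 8 groups of PND1 to PND4 and 5.99 to 7.58 in the others, so this likeness includes the separately scaled array set. Rinl, a Rab5 exchange factor gene, averaged 6.14 ± 0.50 (SD, n = 3) in wild type and 7.56 ± 0.08 in knockouts at PND42.

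Clstn2 was lower in knockouts in the first postnatal days, while its adult values, which carry no test, were higher in knockouts. At PND42 its brighter probe set was at 7.62, 9.08 and 7.43 in wild type and 9.87, 9.87 and 9.93 in knockouts, and its dimmer one at 6.38, 7.61 and 6.55 against 8.36, 8.34 and 8.30. The knockout libraries were almost identical to one another, and the wild-type ones spread widely, with replicate 2 nearest to the knockouts on both probe sets. The adult differences were 1.85 ± 0.34 and 1.49 ± 0.27, or 3.6-fold and 2.8-fold.

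In the first days after birth both Clstn2 probe sets were lower in knockouts. At PND2 the brighter one read 10.29, 10.87 and 10.73 in wild type and 8.77, 9.42 and 8.73 in knockouts, a difference of -1.66 ± 0.34 (adjusted p = 0.0013). At PND3 it read 10.92, 10.78 and 10.98 against 9.43, 9.26 and 9.55, a difference of -1.47 ± 0.34 (adjusted p = 0.0024). All 3 knockout libraries lay below all wild-type ones at PND2, PND3 and PND4 on this probe set, where 20.2%, 27.5% and 18.4% of all probe sets did not overlap. The dimmer probe set fell by 1.04 at PND2 (adjusted p = 0.012) and by 1.06 at PND3 (adjusted p = 0.0072). Of the 8 members, 2 passed at PND2 and 2 at PND3, all of them Clstn2, where 5.96% and 8.08% of all probe sets passed, 3.24% and 4.51% downward. At PND4 the differences of -1.23 (adjusted p = 0.084) and -0.96 (adjusted p = 0.099) did not pass, at an age where 0.486% of all probe sets did and none of the 8 members (5 of 8 at an unadjusted p under 0.05). Over PND1 to PND4 together, knockouts were lower by 1.29 on average on the brighter probe set (-1.29 ± 0.17, SE, n = 12 per genotype, adjusted p = 1.1e-07) and by 0.88 on the dimmer one (-0.88 ± 0.13, adjusted p = 3.7e-06).

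The single-age call of the dimmer probe set was less firm than that of the brighter one. It was lost at PND2 without wild-type replicate 2 (adjusted p = 0.061) or 3 (adjusted p = 0.054) or knockout replicate 1 (adjusted p = 0.12) or 3 (adjusted p = 0.075), and at PND3 without knockout replicate 1 (adjusted p = 0.053). Markers of other tissues moved at these ages too. At PND2 the 5 thymocyte genes summed to 797.7 to 8094 in knockouts and 179.6 to 314 in wild type, with 3 of 5 higher. In the same libraries 3 of 5 alveolar macrophage genes were lower (median difference -0.82, sums of 7875 to 10800 against 8032 to 12700), as were 2 of 8 squamous epithelium genes. At PND3 the 6 skeletal muscle genes summed to 1429 to 48160 against 1076 to 1769, with 4 of 6 higher, and the 5 liver genes to 108.7 to 187.7 against 339.3 to 28700, with 1 lower. Also lower at PND3 were 1 of 5 alveolar macrophage genes (8578 to 8870 against 9987 to 11440) and 1 of 5 ciliated genes (1734 to 2131 against 2598 to 3537). Their part in the Clstn2 results was not tested. The 6 neuron genes, which mark the cells where Clstn2 is best known, had none past the test at PND2, PND3, PND14 or PND42. Their summed signal was 1293 to 1505 in wild type and 869.5 to 993 in knockouts at PND3, and 3968 to 4425 against 2880 to 3527 at PND42. Their mean levels overlapped, at 6.61 to 6.83 against 6.41 to 6.72 at PND3 and 6.62 to 6.89 against 6.61 to 6.71 at PND42. The part of the neuron genes was not tested either.

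Outside those 4 days Clstn2 did not differ by the tests. Over the 6 other earlier ages the brighter probe set averaged 0.31 ± 0.14 higher in knockouts (n = 18 per genotype, adjusted p = 0.22) and the dimmer one 0.29 ± 0.11 (adjusted p = 0.13). At PND14, knockouts stood at 10.05, 10.19 and 10.23 and wild type at 9.74, 8.56 and 9.39 on the brighter probe set. This is the adult direction without overlap, where 15.1% of all probe sets did not overlap in 1 direction or the other. The difference of 0.93 ± 0.34 did not pass (adjusted p = 0.076). Without wild-type replicates 2 and 3 it was 0.42 (adjusted p = 0.89). The dependence of the difference on age passed for both over the 10 earlier ages (adjusted p = 3.7e-05 and 0.00051) but not within the 6 ages outside PND1 to PND4 (adjusted p = 0.35 and 0.99). Within PND1 to PND4 none of the 8 members depended on age (limma; adjusted p from 0.37 to 0.97, with 3.41% of all probe sets called). The lower knockout levels of Clstn2 thus lie in the separately scaled set of arrays, where age and array set cannot be told apart. Averaged over all 10 earlier ages the brighter probe set passed, at -0.33 ± 0.11 (n = 30 per genotype, adjusted p = 0.038), as 1 of the 8 members, where 9.27% of all probe sets passed, 4.47% downward. It no longer passed when any 1 of 18 libraries was left out, with an adjusted p of 0.05 to 0.063 and the same direction.

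**Figure D3:**
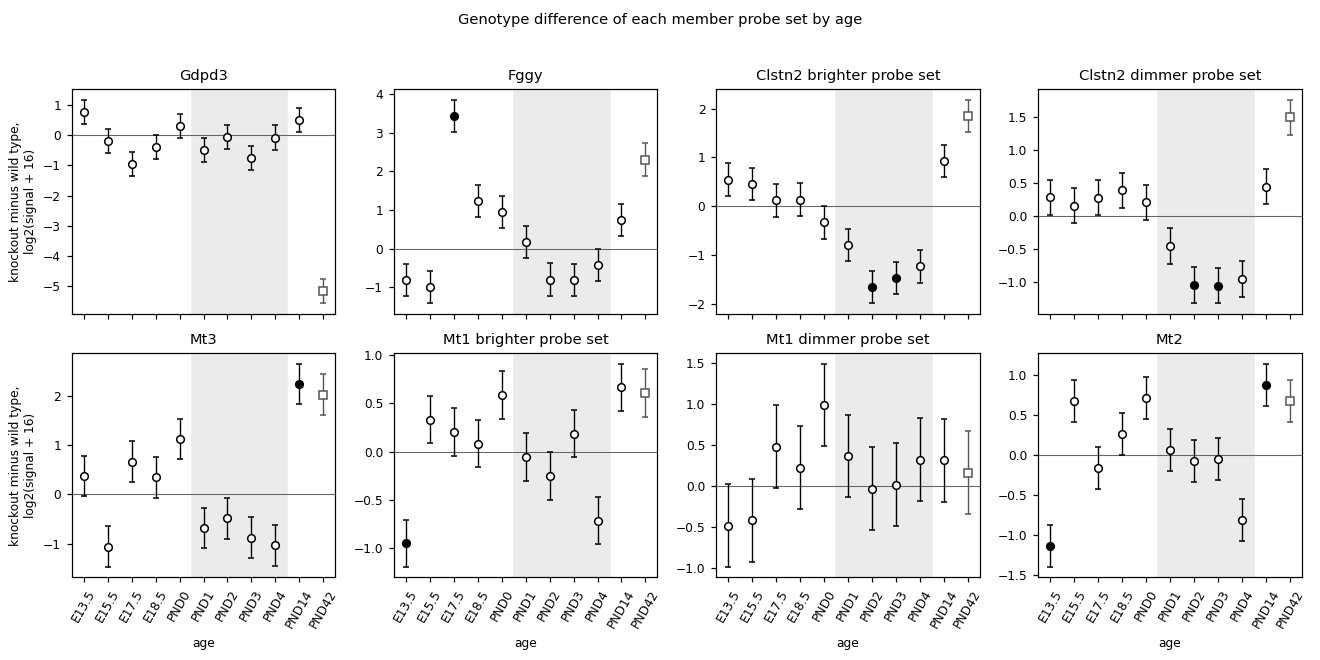
Knockout minus wild-type difference of each probe set at each age, with its SE from the limma fit, as log2(signal + 16). Filled circles had an adjusted p under 0.05, open circles did not, squares at PND42 carry no test because the members were chosen there, and the grey band marks PND1 to PND4. Clstn2 lies below 0 throughout that band and above 0 at PND14 and PND42, and Mt3 and Mt2 pass at PND14.

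In wild-type lung Clstn2 rose around birth. Between E18.5 and PND0 the brighter probe set rose by 1.38 ± 0.34 (adjusted p = 0.0078) and the dimmer one by 1.15 ± 0.27 (adjusted p = 0.0056), from 7.75, 9.36 and 8.96 to 10.03, 9.92 and 10.27 on the brighter one. These were 2 of the 8 members to pass, with 4.15% of all probe sets, 2.33% upward. The low library at E18.5, replicate 1, carries much of the step: without it the differences were 0.91 (adjusted p = 0.19) and 1.00 (adjusted p = 0.06), and without PND0 replicate 3 the brighter one was 1.28 (adjusted p = 0.052). From PND0 to PND14 both read lower, by -0.84 (adjusted p = 0.09) and -0.71 (adjusted p = 0.068), without passing. By PND42 the wild-type mean was 2.03 below PND0, while the knockout mean was 0.15 above it. The 2 Clstn2 probe sets followed each other closely, with r = 0.953 over the 66 libraries and 0.815 after removal of group means.

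The other calsyntenins did not show the adult difference by which Clstn2 was chosen. Clstn1 differed by 0.26 and Clstn3 by 0.00 at PND42 without passing. Of 17 measured calsyntenins and partners none rose or fell at that age (median 0.21 against 0.05 over all genes), where 3.2% of all genes rose and 1.59% fell. At PND14, 1 fell, the kinesin heavy chain gene Kif5b (-0.52 ± 0.10, adjusted p = 0.00077), and none rose, where 4.17% of all genes fell. Without wild-type PND14 replicates 2 and 3, which leaves 1 wild-type library, Kif5b was at -0.40. On the same list Nlgn3 was then at 1.65 and Klc1 at -0.63, the largest differences of either sign. Averaged over the earlier ages the kinesin light chain gene Klc4 rose (0.21, adjusted p = 0.00016) and Kif5b fell by 0.14 (adjusted p = 0.0025), where 5.75% of all genes rose and 4.37% fell. The genes most like Clstn2 were Rarres2, which encodes chemerin (r = 0.809), Sacm1l, a phosphoinositide phosphatase gene (r = 0.799), and Cd34, a surface protein of endothelium and progenitors (r = 0.795). With the PND42 libraries left out Rarres2 ranked 6th (r = 0.862), Sacm1l 60th (r = 0.826) and Cd34 120th (r = 0.812). At PND42 Rarres2 averaged 11.14 ± 0.11 (SD, n = 3) in wild type and 11.16 ± 0.12 in knockouts. Sacm1l was at 10.96 ± 0.08 and 11.26 ± 0.11, and Cd34 at 11.40 ± 0.17 and 11.71 ± 0.10.

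The metallothionein genes lie in 1 cluster on chromosome 8 in the order Mt4, Mt3, Mt2 and Mt1, with the predicted locus Gm39227 between Mt3 and Mt2. The 250 bases before the listed start of 3 of them are shown because Mt1 and Mt2 moved together over these libraries while Mt3, in the same cluster, did not follow them. They are from RefSeq on GRCm38.p6, plus strand, 5′ to 3′. Capitals mark the metal response cores TGCACNC and TGCGCNC, to which Mtf1 is known to bind, and the antioxidant response core TGACNNNGC, to which Nrf2 is known to bind, on either strand; a core on the other strand shows as its reverse complement.
Mt1, chr8:94178839-94179088: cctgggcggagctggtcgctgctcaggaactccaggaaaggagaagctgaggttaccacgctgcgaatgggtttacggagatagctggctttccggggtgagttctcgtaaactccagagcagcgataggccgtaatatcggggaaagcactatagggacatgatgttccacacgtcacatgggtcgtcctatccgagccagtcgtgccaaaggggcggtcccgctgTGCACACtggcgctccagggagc
Mt2, chr8:94172368-94172617: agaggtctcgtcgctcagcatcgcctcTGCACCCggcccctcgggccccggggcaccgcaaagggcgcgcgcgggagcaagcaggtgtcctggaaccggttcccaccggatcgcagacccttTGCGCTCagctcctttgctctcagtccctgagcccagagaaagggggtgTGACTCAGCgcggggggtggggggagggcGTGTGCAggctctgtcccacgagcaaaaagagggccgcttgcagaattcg
Mt3, chr8:94152357-94152606: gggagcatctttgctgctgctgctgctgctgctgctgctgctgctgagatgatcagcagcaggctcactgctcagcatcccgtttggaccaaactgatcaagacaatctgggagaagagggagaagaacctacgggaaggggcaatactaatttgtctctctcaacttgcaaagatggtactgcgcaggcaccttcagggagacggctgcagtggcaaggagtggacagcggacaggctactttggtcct
These windows hold 1 metal response core for Mt1, 3 for Mt2 and none for Mt3, and 1 antioxidant response core, TGACTCAGC, for Mt2. Of 32851 promoter windows of this length 21.4% hold at least 1 metal core, 1.26% at least 3 and 10.2% the antioxidant core. With the 50 bases after the start included, the counts of metal cores are 3, 4 and 1, and at least 3 are found in 1.97% of all such windows. The windows of Gdpd3 hold none of these cores, Clstn2 holds 1 metal core, and the 2 listed starts of Fggy hold 1 antioxidant core and 1 metal core. A match describes the sequence only, and cores beyond these windows were not counted.

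Mt3 had the largest PND14 difference of the members, in the adult direction. At PND42 wild type stood at 5.95, 6.91 and 6.48 and knockouts at 8.65, 8.15 and 8.58, with signals of 54.1, 122 and 87.1 against 468, 317 and 434. The groups did not overlap, and the difference of 2.02 ± 0.41 was the 47th in size. At PND14, which played no part in the choice, wild type stood at 4.75, 4.999 and 5.17 and knockouts at 7.31, 6.70 and 7.63, with signals of 13.8, 17.4 and 21.1 against 141, 99.9 and 198. Knockout Mt3 at PND14 thus stood above the level of adult wild type in 2 of 3 libraries, and wild-type Mt3 was at its lowest of all ages. At PND14 8.2% of all probe sets passed, with 3.28% of all probe sets upward, and 2 of the 8 members did, Mt3 and Mt2. The Mt3 difference at PND14 was 2.24 ± 0.41 (limma adjusted p = 0.00036, n = 3 per genotype). Its size depends on the pseudocount, since the wild-type signals are near 16: it was 2.82 with a pseudocount of 4 and 1.31 with 64.

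Thymocyte signal moved with genotype at PND14. The 5 thymocyte genes summed to 780.5, 44940 and 8291 in wild type and to 297.2 to 520.5 in knockouts. Without wild-type replicates 2 and 3 the Mt3 difference was 2.46 (adjusted p = 0.047), with the 1 library left, whose thymocyte sum was still above every knockout, assumed to vary like the other groups. With the ratio of 3' to 5' Actb control signals as a covariate it was 2.38 (adjusted p = 0.028). That ratio was 1.45 to 1.87 in wild type and 1.7 to 2.95 in knockouts at PND14, and 1.45 to 1.5 against 1.71 to 2.01 at PND42. With only the 6 PND14 libraries in the fit the call was lost (adjusted p = 0.43), as were all but 1 of the 3695 calls over all probe sets. The 5 ciliated cell genes summed to 2873 to 9245 in wild type and 8871 to 10630 in knockouts at PND14, with 2 of 5 higher, and to 8346 to 9250 and 9264 to 11140 at PND42, with none past the test. Their part in the Mt3 result was not tested.

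At younger ages Mt3 went both ways. At PND0 knockouts stood at 7.19, 6.69 and 6.93 and wild type at 6.75, 5.21 and 5.49, a difference of 1.12 that did not pass (adjusted p = 0.072). Over PND1 to PND4 Mt3 was lower in knockouts, at -0.77 ± 0.21 on average (SE, n = 12 per genotype, adjusted p = 0.0078), though no single day passed. Over the 6 other earlier ages it was higher, at 0.61 ± 0.17 (n = 18 per genotype, adjusted p = 0.02). The dependence of its genotype difference on age passed over the 10 earlier ages (adjusted p = 6.9e-05) and within those 6 (adjusted p = 0.0012). Without E17.5 and E18.5 as well, the average over the 4 ages left was 0.67 ± 0.21 (adjusted p = 0.038) and the dependence on age passed (adjusted p = 6e-04). Mt3 was most like Tpd52 (r = 0.562), Wdr66 (r = 0.557) and Armc3 (r = 0.551), the lowest likeness among the 6 genes. Without the PND42 libraries Tpd52 still ranked 1st (r = 0.62), Wdr66 14th (r = 0.488) and Armc3 24th (r = 0.48). Tpd52 averaged 10.73 ± 0.04 (SD, n = 3) in wild type and 10.51 ± 0.02 in knockouts at PND42, the other way from Mt3, and 9.94 ± 0.31 and 10.43 ± 0.09 at PND14. Wdr66, a gene of cilia and flagella, averaged 6.85 ± 0.31 and 7.82 ± 0.14 at PND42, and 6.17 ± 0.28 and 7.07 ± 0.16 at PND14. Armc3 averaged 7.35 ± 0.30 and 8.20 ± 0.27 at PND42, and 6.29 ± 0.40 and 7.80 ± 0.18 at PND14.

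Mt1 and Mt2 were bright and followed 1 course over age. In wild type the brighter Mt1 probe set had a mean of 10.63 at E13.5, 12.52 at E17.5 and 12.85 ± 0.15 (SD, n = 3) at PND0, and Mt2 10.79, 12.46 and 12.52 ± 0.29. After birth both fell: from PND0 to PND14 by 1.78 for Mt1 (-1.78 ± 0.25, SE, adjusted p = 6.1e-07) and by 2.15 for Mt2 (-2.15 ± 0.26, adjusted p = 3.7e-08). These were the 2 of 8 members that passed in this step, where 13.6% of all probe sets passed, 7.39% downward. Both ends lie in the same array set, and without wild-type PND14 replicates 2 and 3 the steps were -1.29 (adjusted p = 0.0084) and -1.58 (adjusted p = 0.0026). Adult wild type was lower again, with means of 9.97 and 9.70. Within PND1 to PND4, wild-type Mt1 was the only 1 of the 8 probe sets to change with age (span 1.07, adjusted p = 0.00068, with 11.2% of all probe sets).

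Across the 66 libraries the brighter Mt1 probe set and Mt2 correlated with r = 0.955, and with 0.765 after removal of group means. Libraries of the same group with more Mt1 thus also had more Mt2. Mt3 did not follow either of them (r = 0.09 and 0.115). Next to Mt2, the genes most like Mt1 were Use1, of vesicle transport to the endoplasmic reticulum (r = 0.862), and Mxd4, a MYC antagonist (r = 0.855), and next to Mt1 the genes most like Mt2 were Use1 (r = 0.833) and Mctp2 (r = 0.805). The dimmer Mt1 probe set lay between 4.19 and 7.05 in all 60 earlier libraries and passed no test. Its r with Mt2 was 0.567, and 0.304 after removal of group means. Apart from counts of members and the closing section it is not used further.

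**Figure D4:**
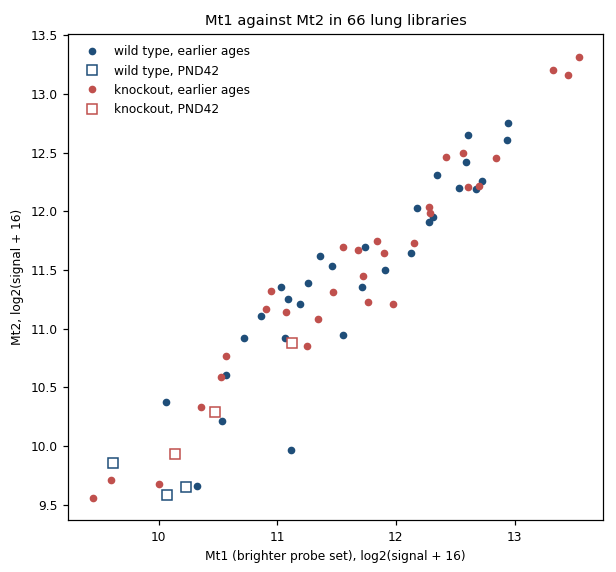
Mt2 against the brighter Mt1 probe set in each of the 66 libraries, both as log2(signal + 16), with PND42 as open squares and earlier ages as filled circles. The points form 1 band (r = 0.955), with the 3 knockout PND0 libraries at the top and the PND42 libraries near the bottom.

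The genotype difference of Mt1 and Mt2 was not equal over the earlier ages. At E13.5 both were lower in knockouts: Mt1 stood at 10.57, 11.26 and 10.06 in wild type and 10.001, 9.44 and 9.60 in knockouts (-0.95 ± 0.25, adjusted p = 0.03), and Mt2 at 10.61, 11.39 and 10.37 against 9.67, 9.56 and 9.71 (-1.14 ± 0.26, adjusted p = 0.011). No knockout library reached the lowest wild-type one, and the genotypes stood apart in 1 direction or the other on 15.3% of all probe sets. They were the 2 members of 8 that passed at E13.5, where 1.54% of all probe sets passed, 0.93% downward. Wild-type E13.5 replicate 2 was the highest in both genes, and in that library the 5 liver genes summed to 8454 against 557.6 and 744 in the other two and 227.2 to 508.9 in knockouts. Without it the differences were -0.63 (adjusted p = 0.36) and -0.84 (adjusted p = 0.19). Without knockout replicate 2 they were -0.83 (adjusted p = 0.18) and -1.10 (adjusted p = 0.059), and the Mt1 call was also lost without wild-type replicate 1 (adjusted p = 0.078) or knockout replicate 3 (adjusted p = 0.1). Lung epithelial genes were higher in the same knockouts: the 3 club cell genes, all of which passed, summed to 2996 to 41180 against 817.4 to 1494 in wild type, the 5 type 2 genes, 3 of which passed, to 4785 to 28490 against 3617 to 4743, and 3 of 5 type 1 genes passed. Their part in the Mt1 and Mt2 results was not tested.

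At PND0 both genes stood at their highest levels in knockouts, and the difference did not pass. Mt1 was at 12.93, 12.67 and 12.95 in wild type and 13.32, 13.46 and 13.54 in knockouts (0.59, adjusted p = 0.13), and Mt2 at 12.61, 12.19 and 12.76 against 13.20, 13.16 and 13.32 (0.71, adjusted p = 0.075). All knockout libraries were above all wild-type ones for both genes, as were 14.2% of all probe sets. None of the 8 members passed at PND0, where 10.7% of all probe sets did (limma; 4 of 8 had an unadjusted p under 0.05). At PND4 the order was reversed without overlap, where 18.4% of all probe sets did not overlap in 1 direction or the other. The differences of -0.71 for Mt1 (adjusted p = 0.24) and -0.82 for Mt2 (adjusted p = 0.18) did not pass.

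At PND14 Mt2 rose in knockouts, with 11.22, 11.31 and 11.21 against 10.94, 10.21 and 9.96 in wild type (0.87 ± 0.26, adjusted p = 0.028). Mt1 differed by 0.67 (adjusted p = 0.081), with 11.77, 11.47 and 11.97 against 11.56, 10.53 and 11.12. The lower wild-type libraries were those with thymocyte signal, replicates 2 and 3, and without both the differences were 0.31 for Mt2 (adjusted p = 0.9) and 0.18 for Mt1 (adjusted p = 0.95). Leaving out 1 library also ended the Mt2 call: the adjusted p was 0.2 without wild-type replicate 2, 0.13 without replicate 3, and 0.053, 0.075 and 0.078 without knockout replicates 1, 2 and 3. With the Actb ratio as a covariate the difference was 0.81 (adjusted p = 0.34). At PND42 Mt2 stood at 9.59, 9.65 and 9.85 in wild type and 10.88, 10.29 and 9.93 in knockouts, and Mt1 at 10.07, 10.23 and 9.61 against 11.13, 10.47 and 10.13. The knockouts spread more widely than wild type, and for Mt1 the groups overlapped. For the adult differences of 0.67 and 0.61, 4.52% and 5.97% of all probe sets had one at least as large in the same direction.

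Over the 10 earlier ages the genotype difference of both depended on age (adjusted p = 0.0023 for Mt1 and 2e-04 for Mt2), also within the 6 ages outside PND1 to PND4 (adjusted p = 0.0042 and 0.00027). Their averages over the 10 ages were 0.01 ± 0.08 and 0.03 ± 0.08 (SE, n = 30 per genotype), with ages of either sign among them.

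Counted over the 10 earlier ages, 9 of 80 tests of single ages passed for the 8 probe sets, 3 higher and 6 lower in knockouts, against 4.72% of all tests of all probe sets (27 of the 80 had an unadjusted p under 0.05). None of the 8 passed at E15.5, E18.5 or PND1, where 0.127%, 8.75% and 2.05% of all probe sets did (limma; 3, 1 and 1 had an unadjusted p under 0.05). Over the wild-type ages 7 of the 8 changed, the exception being the dimmer Mt1 probe set (adjusted p = 0.52).

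No gene on the metal handling list, which does not hold Mt1, Mt2 and Mt3, passed in adults. Of 29 measured, none rose and none fell at PND42 (limma; median 0.07 against 0.05 over all genes), where 3.2% of all genes rose and 1.59% fell. Of 2 genes named here after their values were seen, Mtf1 differed by 0.52 (adjusted p = 0.2) and the zinc exporter gene Slc30a1, a known Mtf1 target, by 0.13 (adjusted p = 0.77). At PND14, 2 rose, Mt4 (3.16 ± 0.73, adjusted p = 0.004) and the copper ATPase gene Atp7b (0.66 ± 0.19, adjusted p = 0.022), and none fell, where 5.18% of all genes rose. Without wild-type PND14 replicates 2 and 3 Mt4 was at 5.10 ± 0.94 (adjusted p = 0.003) and Atp7b at 0.21 (adjusted p = 0.89). The squamous epithelium genes summed to 3873, 4473 and 21810 in wild type and 1264, 24270 and 31340 in knockouts at that age, and their part in the Mt4 value was not tested.

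At PND0 the list had 4 rises and 3 falls, with Atp7b at 0.87 (adjusted p = 0.00096), Slc30a1 at 0.79 (adjusted p = 0.00018), the zinc importers Slc39a2 at -1.91 (adjusted p = 1e-04) and Slc39a10 at -0.49 (adjusted p = 7.7e-05). Over all genes 5.85% rose and 8.62% fell there. Averaged over the earlier ages 1 rose and 2 fell, Slc39a10 among the latter (-0.14, adjusted p = 0.00062), where 5.75% of all genes rose and 4.37% fell.

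Glucocorticoid-responsive genes, listed because glucocorticoids induce Mt1 and Mt2, rose at PND0 in 13 of 17 and fell in 1, with a median of 1.48 against -0.03 over all genes. At that age 5.85% of all genes rose and 8.62% fell. Fam107a rose by 3.68 (adjusted p = 7.7e-13), the transcription factor gene Zbtb16 by 3.12 (adjusted p = 1.5e-05), and Pdk4, a brake on pyruvate oxidation, by 2.22 (adjusted p = 8e-05). At PND14, where 5.18% of all genes rose, 3 rose: Fam107a (1.55, limma adjusted p = 0.00089), the phosphatase gene Dusp1 (1.05, adjusted p = 0.0034) and Cebpd (0.98, adjusted p = 0.014), and none fell. Without wild-type PND14 replicates 2 and 3 these were 1.13 (adjusted p = 0.37), 0.87 (adjusted p = 0.29) and 0.55 (adjusted p = 0.67), and none of the 17 passed (limma). At PND3, 9 rose and 1 fell (median 0.82), while Mt1 differed by 0.19 (adjusted p = 0.75) and Mt2 by -0.06 (adjusted p = 0.95), and 4.11% of all genes rose and 6.69% fell. At E18.5, 7 fell and none rose, with Mt1 at 0.08 and Mt2 at 0.26, where 5.3% of all genes fell. At PND1, 5 fell and none rose, with Mt1 at -0.05 and Mt2 at 0.06, where 0.759% of all genes fell. At PND2, 2 rose, where 3.11% of all genes did, and at E13.5, E15.5, E17.5, PND4 and PND42 none of the 17 passed.

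Of 25 measured Nrf2 targets 10 fell and none rose at PND42, where 1.59% of all genes fell and 3.2% rose. Their median was -0.46 against 0.05 over all genes. The lowest values were those of the carboxylesterase gene Ces1g (-2.41 ± 0.34, adjusted p = 1.6e-06), of Gpx2, for a peroxidase that uses glutathione (-2.26 ± 0.43, adjusted p = 0.00028), and of the aldehyde oxidase gene Aox1 (-1.70 ± 0.26, adjusted p = 5.5e-06). Gdpd3 was chosen by its adult difference of -5.16, so that size is not set against these. On average over the earlier ages 15 of the 25 fell, where 4.37% of all genes fell, while Gdpd3 did not pass. Among 16 acute inflammation genes 2 fell and none rose at PND42, Il1b (-1.24, adjusted p = 0.0017) and Stat3 (-0.39, adjusted p = 0.032), where 3.2% of all genes rose and 1.59% fell. At PND14, 3 rose and 2 fell, against 5.18% and 4.17% of all genes, with Orm1, an acute phase protein, at 1.61 (adjusted p = 0.01) and Tnf at -1.41 (adjusted p = 0.017). Without wild-type PND14 replicates 2 and 3 these were 1.93 (adjusted p = 0.21) and -1.51 (adjusted p = 0.34).

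Other measures moved with genotype in the adult libraries as well. The 5 thymocyte genes summed to 496.9 to 2273 in wild type and 281.2 to 486.3 in knockouts at PND42, with 1 of 5 lower, and the 5 neutrophil genes to 7088 to 18570 against 5445 to 6067, with none past the test. Of 5 alveolar macrophage genes 1 was lower, and their mean level was 10.17 to 10.44 in wild type and 9.57 to 9.84 in knockouts (sums of 30770 to 36850 against 34880 to 41540). Together with the ciliated genes and the Actb ratio given above, their part in the adult differences was not tested. With that ratio as a covariate the adult differences of the 6 genes were -4.96 for Gdpd3, 2.34 for Fggy, 1.63 and 1.53 for Clstn2, 2.11 for Mt3, 0.50 for the brighter Mt1 probe set and 0.63 for Mt2.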

How the data were processed

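The values analysed were the intensities deposited by the authors, linear signals of probe sets. The tool named there, per the submitters' processing notes, is GCOS, its version and algorithm not given in the sources used here. These signals, 0.0326 to 61022, were quantile normalized with the 64 controls included and analysed as log2(signal + 16), which understates changes of dim probe sets. One limma model (3.58.1, R 4.3.3, with version 1.17.8 of data.table) held a mean for each of the 22 groups, with the prior variance following mean intensity (44 residual and 6.69 prior df). P-values were two-sided and adjusted by Benjamini-Hochberg over the 45037 probe sets of each comparison, with a threshold of 0.05. With 3 arrays per group, precision is limited. With 3 against 3, exact permutation cannot reach below 0.1. The labels call the libraries biological replicates, and no 2 arrays correlated above 0.9834.

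Gene names came from the platform annotation, with 1 symbol for 34945 probe sets, several for 932 and none for 9160. The probe set with the highest mean stood for a gene in lists. Promoters of all 6 genes were found in RefSeq (GRCm38.p6). Members and lists were chosen with earlier results of these data known. Named genes were Nfe2l2, the members, for each the 3 most alike genes by Pearson r over 66 libraries (predicted loci and unnamed probe sets passed over), family members, and per list and comparison at most 4 genes past the threshold, by size. The fit was tested on simulated data. Alternatives are in the closing section. Figures used matplotlib 3.10.9 in Python 3.11.15.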

Additional observations from a re-analysis of the deposited data

Results flagged for a closer look

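For 6 of the 8 probe sets the genotype difference was not equal at the 10 ages from E13.5 to PND14, by the limma F test of that dependence. The adjusted p was 4.6e-07 for Fggy, which was higher in knockouts at E17.5 and, without passing, lower at PND2 to PND4. It was 3.7e-05 for the brighter and 0.00051 for the dimmer Clstn2 probe set, where knockouts were lower at PND2 and PND3. For Mt3 it was 6.9e-05, with knockouts higher at PND14. For the brighter Mt1 probe set and Mt2 it was 0.0023 and 2e-04, with knockouts lower at E13.5.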

How the results depend on the processing

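Of 1695 recomputed values of single probe sets, 1627 were counted as the same. For a tested value this means the same direction and side of the threshold. For an untested PND42 value it means a move of less than the larger SD of the 2 groups, whatever its sign. The dimmer Mt1 probe set at PND42, 0.17 in the fit reported, thus counted as the same at -0.09 with the Actb covariate. It also did at -0.35 without 1 library. A further 66 tested values kept the direction but no longer passed, and 1 tested value reversed. By more than that SD 1 untested value moved (Fggy at PND42, 1.51 with a pseudocount of 64). The reversal was the average of the brighter Clstn2 probe set, -1.29 over PND1 to PND4 alone and 0.31 over the 6 other ages (adjusted p = 0.22). The count of members called in the average over earlier ages was 0 with array medians subtracted, with each array brought to a trimmed mean of 500 or with a pseudocount of 4, 2 without E17.5 and E18.5 or over the 6 ages alone, and 3 over PND1 to PND4 alone. Over PND1 to PND4 alone the dependence on age called 0 members and the wild-type change with age 1. Leaving out 1 library in turn gave counts of 0 to 1 for the average, 7 to 11 for single ages, 6 to 7 for the dependence on age, 7 for the wild-type change with age, 0 to 2 for the step from E18.5 to PND0 and 2 to 4 for the step from PND0 to PND14. The replicate numbers do not pair the libraries: of 33 same-numbered pairs 1 had a correlation over 0.1. With the number as a replicate block the counts were 1, 9, 6, 7, 2 and 2, as without it, and no member's call changed. With only the 6 libraries of an age in the fit, the calls of Mt1 and Mt2 at E13.5, of both Clstn2 probe sets at PND2 and of Mt3 and Mt2 at PND14 were lost (adjusted p from 0.073 to 0.62), while those of Fggy at E17.5 and Clstn2 at PND3 stayed. Array medians also ended the calls of Mt1 at E13.5 (adjusted p = 0.067) and of the dimmer Clstn2 probe set at PND2 (0.086), and array weights that of Mt2 at E13.5 (0.058). Over all probe sets, 2323 to 6188 passed in the average (4177 in the fit reported), and 1 to 4141 at PND14 (3695). The exchange of the knockout groups E17.5 and E18.5, the fits without 2 wild-type PND14 libraries, the 4 ages without E17.5 and E18.5 and the Actb covariate were chosen after seeing the data. Depth cannot be read from intensities, and the dim signals of Fggy and Mt3 lie where the pseudocount weighs most: at pseudocounts of 64 and 4 the Mt3 difference at PND14 was 1.31 and 2.82.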

Other observations

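Of the 45037 probe sets, 8 differed by 4 or more in size on the log2 scale between genotypes at PND42, 5 higher and 3 lower in knockouts. The platform annotation gives 1 gene symbol for 2 of them, Nfe2l2 and Gdpd3. Of the 6 without a name, 1456182_x_at stood at 4.24 in wild type and 11.27 in knockouts, and its difference averaged over the earlier ages was -0.03. The probe sets 1433438_x_at (5.16 and 11.07) and 1456456_x_at (4.84 and 9.24) likewise averaged -0.16 and -0.08 over the earlier ages, beside -0.14 for Gdpd3. Their single earlier ages are not given here, and so small an average can hold differences of either sign. These unnamed probe sets were picked after their values were seen and carry no test.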
